A study of Mus musculus with 20 samples.

Results

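The fatty acid-binding protein genes Fabp1, Fabp2, Fabp3, Fabp4, Fabp5, and Fabp7 were followed in RNA-seq libraries of 5 mouse organs. They were taken as the rows of the count table with one of these symbols, which gave 6 genes of 55401, with 1 row each. Fabp6, the bile acid-binding relative of the ileum, was not one of them and is used only as a marker of gut position. RNA came from heart, kidney, liver, spleen, and small intestine, taken from WT and Nsun6-KO mice, and each organ has 2 WT and 2 KO libraries, 20 in all. The methods describe female mice of 8 weeks in the C57BL/6J background. KO mice were homozygous for a deletion of exons 3 and 4 of Nsun6, an enzyme that methylates cytosines in RNA. The deletion was made in fertilized eggs with CRISPR/Cas9 and passed on by breeding, so it is not limited to a cell type, and WT mice lacked it. The labels give neither the part of the intestine that was taken nor the mouse behind each library, so p-values measure the spread between the libraries of a group. All values are for whole organs, in which fewer cells of a type and less RNA per cell cannot be told apart.

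Fatty acid-binding proteins are small, abundant proteins of the cytosol. They hold a long-chain fatty acid or a related lipid in a barrel-shaped pocket and carry it between membranes, lipid droplets, and the enzymes that burn or store it. Fabp1 is the liver form and is also made by enterocytes, Fabp2 is the intestinal form, and Fabp3 is the form of heart and other muscle. Fabp4 is known from adipocytes, capillary endothelium, and macrophages, Fabp5 from epidermis and many other cells, and Fabp7 from brain and glia. Several of these genes are targets of the PPAR nuclear receptors, which bind DNA with RXR at a pair of short elements.

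In GRCm38, Fabp1 (ENSMUSG00000054422) lies on the plus strand at chr6:71199827-71205023 and Fabp2 (ENSMUSG00000023057) on the plus strand at chr3:122895072-122899506. Fabp3 (ENSMUSG00000028773) is on the plus strand at chr4:130308595-130315463 and shares 161 bp of exon with Zcchc17 and Gm10570 on the other strand. Fabp4 (ENSMUSG00000062515, minus strand, chr3:10204088-10208576) and Fabp5 (ENSMUSG00000027533, plus strand, chr3:10012548-10016607) lie in the same part of chr3. Fabp7 (ENSMUSG00000019874) is on the plus strand at chr10:57784881-57788450. The principal transcript of each member has 4 exons. For Fabp4 and Fabp5 the annotation also holds a transcript with retained introns, so that the merged exons of the gene are 5.01 and 3.614 times as long as the principal transcript, and 1.555 times for Fabp7. Levels divided by merged exon length are therefore low for these 3 genes.

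RefSeq promoter windows, from 250 bases before the start site to 50 after it in GRCm38.p6, were matched for 4 of the 6 members, namely Fabp1, Fabp2, Fabp3, and Fabp7. They were searched on both strands for 4 letter patterns, because the members differed so widely between organs and along the gut. One pattern was the TATA box, TATAAA. The nuclear receptor element was AGGTCA, and the DR1 pair was this element written over again after 1 spacer base, with up to 1 mismatch. The HNF1 element was GTTAAT. The Fabp1 window held all 4. The stretches below, written 5′ to 3′ on the plus strand with the matched bases in capitals, are those with the DR1 pair at position -67 and the HNF1 element at position -107 of Fabp1, and the only nuclear receptor element of Fabp7, at position -171.
Fabp1 DR1 pair, chr6:71199804-71199826: acaatcacTGACCTATGGCCTat
Fabp1 HNF1 element, chr6:71199764-71199785: tctcaggaGTTAATgtttgagc
Fabp7 nuclear receptor element, chr10:57784744-57784765: gaggatctTGACCTactccgct
The first element of the Fabp1 pair is an exact nuclear receptor element on the minus strand, and another lies at position -9. Of 27025 promoters searched, 0.544% held the DR1 pair with up to 1 mismatch, 16% the single nuclear receptor element, 7.2% the HNF1 element, and 14.2% the TATA box. The TATA box was at position -30 of Fabp1, counted from the RefSeq start at 71199879, whereas the GENCODE gene begins upstream of it at 71199827. The Fabp2 and Fabp3 windows held none of the 4 patterns. A match is a run of letters and not a shown binding site.

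Total counts ranged from 15897446 to 44508197 per library. CPM are counts scaled to the library size after TMM over all 20 libraries, and TPM are the same counts per exon length. Markers of hepatocytes, cardiomyocytes, enterocytes, kidney tubule and glomerulus, and B and T cells were each highest, as a summed level, in the liver, heart, small intestine, kidney, and spleen, so that the organ labels held. A few libraries stood apart within their organ. The spleen WT replicate 2 library carried hepatocyte markers at a summed 3125 CPM, against 10.4 in WT replicate 1 and 112 and 166 in KO. The small intestine KO replicate 1 library carried cardiomyocyte markers at a summed 414 CPM, against 9.27 to 28.8 in the other 3. The liver WT replicate 1 library was low in hepatocyte markers. In the small intestine, replicate 1 of both genotypes carried distal markers and replicate 2 proximal markers. Nsun6 itself was counted in every library, at 3.32 to 9.82 CPM, and its gene-level count includes exons outside the deletion, so it checks no label.

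The organs differed in their leading member. Fabp1 led in the liver, Fabp2 in the small intestine, and Fabp3 in the heart, while Fabp3 and Fabp4 stood side by side at a much lower level in the kidney. By level per exon length, Fabp1 reached 27323 ± 5675 TPM (SD, n = 4) in the liver, Fabp3 23821 ± 6990 TPM in the heart, and Fabp2 22786 ± 4762 TPM in the small intestine. Of the summed TPM of the 6 members, Fabp1 made up 98.3% ± 0.431 in the liver and Fabp3 96.3% ± 0.997 in the heart. Fabp2 made up 73.6% ± 28.1 of the sum in the small intestine, where Fabp1 was second. In the kidney Fabp3 held 74.2% ± 2.76 of a much lower sum, with Fabp3 at 578 ± 48.7 TPM. This share rested on the long merged exons of Fabp4, and with the length of the principal transcript, a choice made after the levels had been seen, it was 45.8% ± 3.24. On that length Fabp3 was at a mean of 207 and Fabp4 at 186 RPKM in the kidney, and their mean CPM were 170.2 and 167. In the spleen no member led in this way, and the largest mean share, 42.2% ± 34.6 for Fabp1, rested on the WT replicate 2 library.

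Organs were compared in pairs, with WT and KO weighted equally, by the quasi-likelihood F test of edgeR, with p adjusted over all genes by the Benjamini-Hochberg method. A pair was called when the adjusted p was below 0.1 and the levels differed more than 2-fold. Of 10 pairs, 8 were called for Fabp1, 9 for Fabp2, 9 for Fabp3, 7 for Fabp4, 8 for Fabp5, and 7 for Fabp7. A called pair was common among all 23159 genes tested. The share called was 46.3% for small intestine against liver, 49.5% against spleen, 45.7% against kidney, and 53.5% against heart. It was 52.2% for liver against spleen, 34.7% for liver against kidney, 44.5% for liver against heart, 50.5% for spleen against kidney, 52.6% for spleen against heart, and 38% for kidney against heart. Because TMM and library size scaling moved the median gene by up to -1.18 on the log2 scale (liver against spleen), the differences below are those on the TMM scale.

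**Figure D1:**
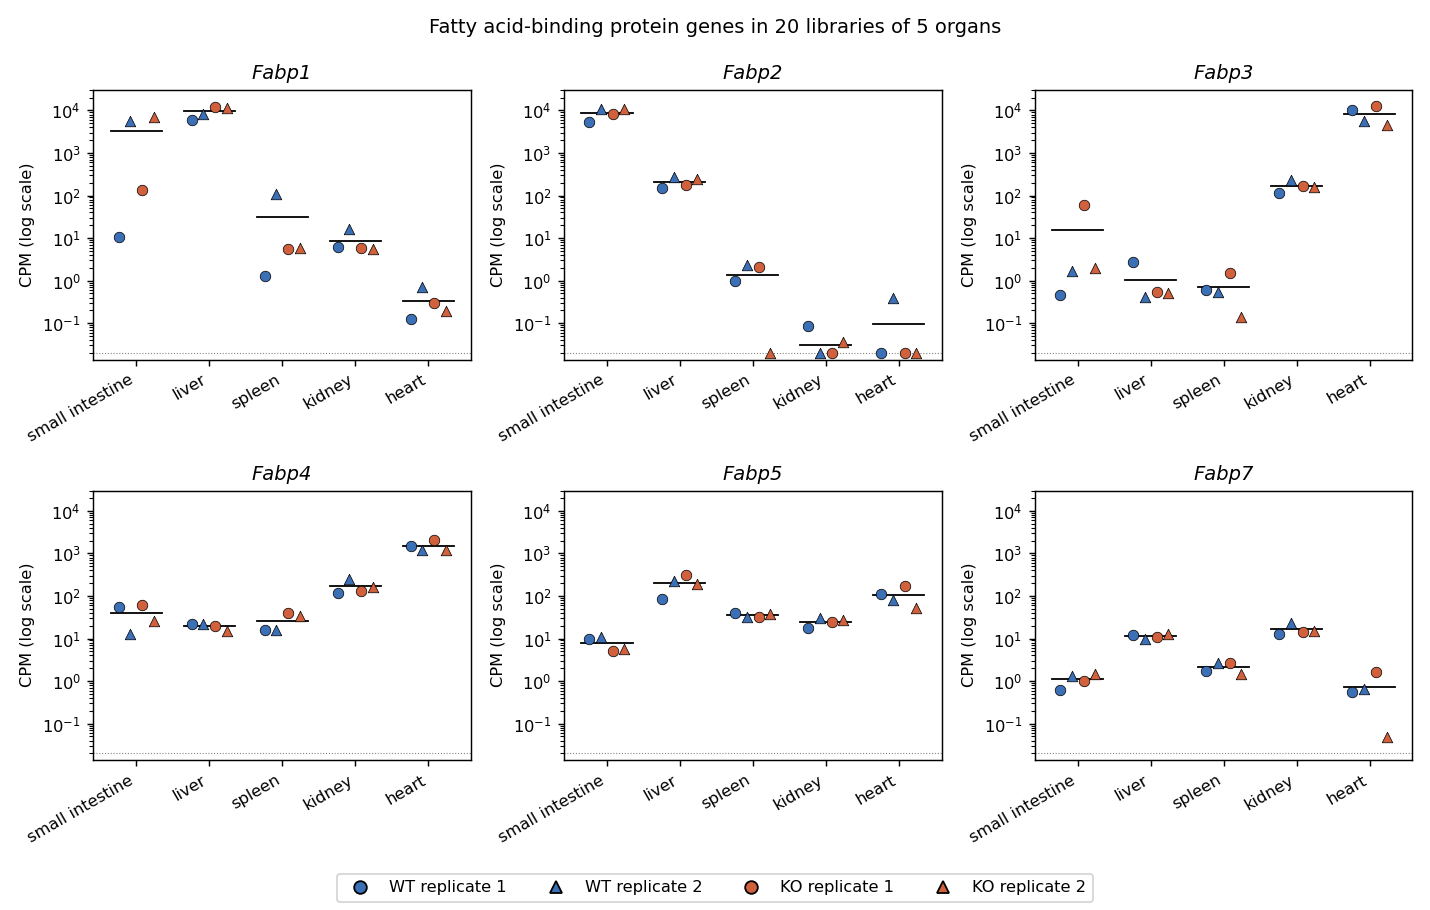
CPM (log axis) of the 6 genes in each organ, 1 point per library, with WT in blue, KO in orange, circles for replicate 1, triangles for replicate 2, and a bar at the mean of the 4 libraries. Libraries with 0 counts are drawn on the dotted line. Fabp1, Fabp2, and Fabp3 differ by several orders of magnitude between organs, whereas Fabp5 and Fabp7 keep to a narrower band.

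Fabp1, which carries fatty acids and other lipids in hepatocytes, stood at 6121 and 8417 CPM in WT liver and 11868 and 11574 CPM in KO liver. The next organ was the small intestine, with a mean of 3218 ± 3681 CPM that hid a split between replicate numbers described below. The liver and small intestine were not separated by the test (log2 difference -1.53 for small intestine minus liver, SE 1.38, adjusted p = 0.392). The liver was called above the small intestine with the replicate number as a block (log2 difference of liver minus small intestine 2.89, adjusted p = 0.0816), on log2 TPM (3.57, adjusted p = 0.0911), with no filter on low counts (1.54, adjusted p = 0.000131), and without small intestine WT replicate 2 (5.49, adjusted p = 0.02). In the spleen Fabp1 stood at 1.32 and 109 CPM in WT and 5.52 and 5.999 CPM in KO, and in the kidney at 6.10 and 16.3 CPM in WT and 5.70 and 5.53 CPM in KO. The highest value of each of these organs was in WT replicate 2. Spleen and kidney did not differ in the test (log2 difference 1.17, SE 1.38, adjusted p = 0.504), and the sign of the difference turned to -1.55 (adjusted p = 0.407) without the spleen WT replicate 2 library. The heart came last at 0.124 to 0.714 CPM, which is 2 to 26 counts per library.

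Fabp2, the fatty acid-binding protein of absorptive enterocytes, was high in every small intestine library, at 5417 and 10930 CPM in WT and 8351 and 10635 CPM in KO. The liver followed with 151 to 274 CPM, a 41.4-fold lower level (log2 difference 5.37, SE 1.04, adjusted p = 0.0009). This was 1.71% to 3.10% of the mean small intestine level, while the median of 6 enterocyte markers in the same liver libraries was 0.00459% to 0.0549%, although the highest of these markers was at 1.62% to 3.78%. For Fabp2 in the spleen, the WT libraries held 52 and 90 counts, KO replicate 1 held 92, and KO replicate 2 held 0. This was at most 0.0266% of the mean small intestine level, and the enterocyte markers there were at a median of 0.129% to 0.233%. The part of intestinal RNA in the spleen counts was not tested. The kidney had at most 3 counts in a library, and in the heart 3 of 4 libraries had none and WT replicate 2 had 14. A library with 0 counts is compatible with up to 3 counts at this depth if each count is an independent molecule. Mates may have been counted separately, so this limit is only approximate. Kidney and heart were not separated (adjusted p = 0.866), with both groups near 0.

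Fabp3, which supplies fatty acids to the mitochondria of heart and skeletal muscle, stood at 10472 and 5685 CPM in WT heart and 12745 and 4540 CPM in KO heart. Replicate 1 was higher than replicate 2 in both genotypes. The heart replicate 2 libraries also had more total counts and more of the adipocyte marker Cfd. Cfd was at 125 CPM in WT and 47.2 CPM in KO there, against 0.746 and 3.45 CPM in replicate 1. The part of these differences in the Fabp3 values was not tested. The kidney was next, at 113 and 236 CPM in WT and 168 and 163 CPM in KO, a 49.1-fold lower level (log2 difference of kidney minus heart -5.62, SE 1.03, adjusted p = 0.000616). The kidney level was 1.35% to 2.83% of the heart level. The median of 7 cardiomyocyte markers in the same kidney libraries was 0.00312% to 0.00796% of their heart level, with the highest marker at 0.165%. In the small intestine Fabp3 stood at 0.465 and 1.67 CPM in WT and at 58.9 and 2.02 CPM in KO, where KO replicate 1 held 1624 of the counts. The small intestine was called 6.22-fold above the liver (log2 difference 2.64, SE 0.947, adjusted p = 0.0331), and without the KO replicate 1 library the difference was 0.68 (adjusted p = 0.539). Liver and spleen, at 0.424 to 2.69 and 0.141 to 1.52 CPM, were not separated (adjusted p = 0.779). The direction between them turned from 0.38 to -0.75 when counts were scaled to library size only. A processed copy, Fabp3-ps1, drew 3677 counts over the 20 libraries, against 758041 for Fabp3, so that a small share of reads may have been divided between them.

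**Figure D2:**
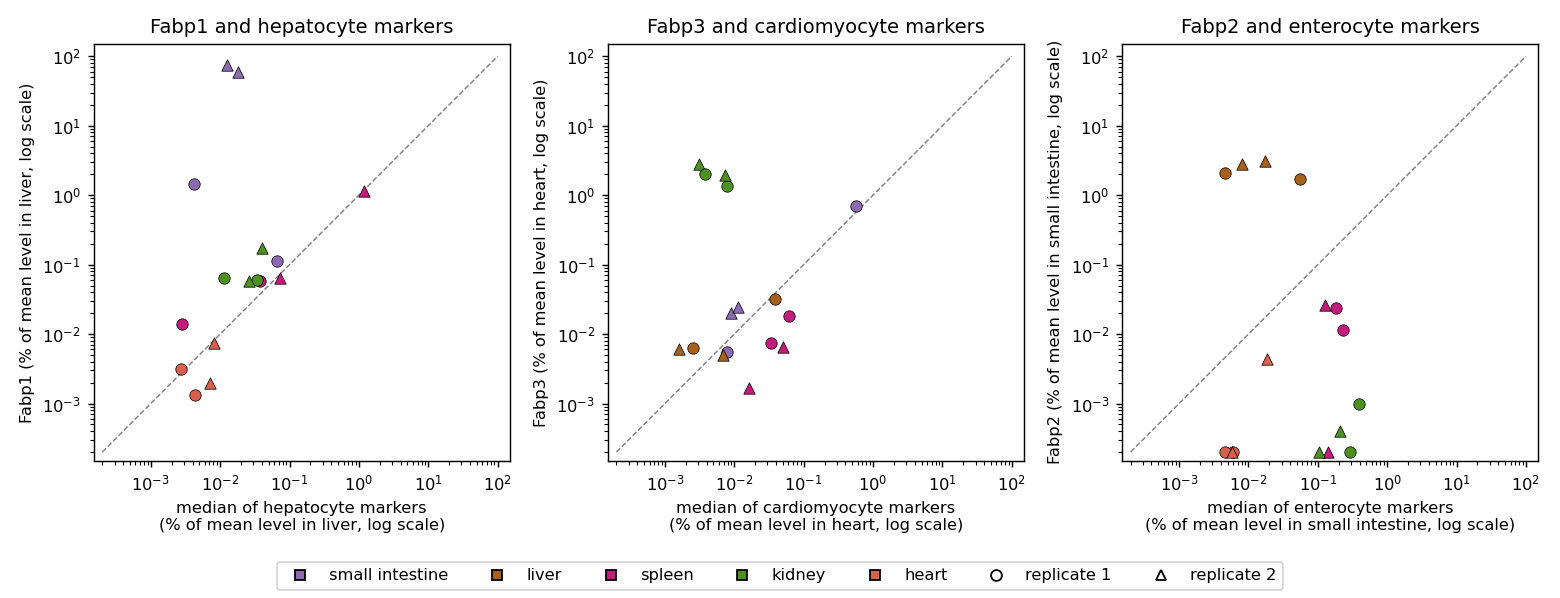
Level of Fabp1, Fabp3, and Fabp2 in each library of the other organs (vertical axis) against the median of the marker genes of their main organ's cells (horizontal axis), both as a percent of the mean level in that main organ on log axes. Colours are organs, circles and triangles are replicates 1 and 2, values of 0 lie on the lower edge, and the dashed line marks equal percentages; spleen WT replicate 2 in the left panel and small intestine KO replicate 1 in the middle panel lie on it, whereas Fabp3 in the kidney and Fabp2 in the liver lie far above it.

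Fabp1 in the spleen and Fabp3 in the small intestine were read beside the markers of the organ where each is most abundant. In spleen WT replicate 2 Fabp1 was at 1.15% of its liver level, and 7 hepatocyte markers were at a median of 1.18%, from 0.971% to 1.78%. Albumin, the most abundant of these markers, was at 2683 CPM. In the small intestine KO replicate 1 library Fabp3 was at 0.704% of its heart level, and 7 cardiomyocyte markers were at a median of 0.577%, from 0.371% to 0.678%. In liver WT replicate 1, the highest liver library for Fabp3, the gene was at 0.0321% of its heart level and the markers at 0.0390%. The part of RNA from another organ in these 3 values was not tested. For Fabp1 in the 2 proximal small intestine libraries the picture differed: the gene was at 59.2% and 74.8% of its liver level, and the hepatocyte markers at a median of 0.0182% and 0.0124%, with the highest marker at 8.64% and 7.59%.

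Fabp4 followed Fabp3 in its 2 leading organs. This carrier, known from adipocytes and the endothelium of capillaries, stood at 1469 and 1209 CPM in WT heart and 2023 and 1226 CPM in KO heart. The kidney was 8.88-fold lower (log2 difference of kidney minus heart -3.15, SE 0.430, adjusted p = 3.97e-05), at 119 and 251 CPM in WT and 132 and 166 CPM in KO. Over the 20 libraries the log2 CPM of Fabp3 and Fabp4 had a Pearson r of 0.954, a description in which libraries of an organ share their cell makeup. The summed level of 10 endothelium markers was highest in the heart, at 912 to 1091 CPM, followed by the kidney at 294 to 572 CPM. It was 193 to 326 CPM in the spleen, 167 to 193 CPM in the liver, and 27.5 to 110 CPM in the small intestine. Fabp4 in the small intestine (12.97 to 62.5 CPM), spleen (15.6 to 39.4 CPM), and liver (15.4 to 22.3 CPM) formed a low group in which no pair was called. Small intestine and liver came nearest, with a 1.97-fold difference under the threshold on the fold change (adjusted p = 0.057).

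Fabp5, the epidermal form, was counted in every library. It was highest in the liver, at 82.6 and 225 CPM in WT and 304 and 188 CPM in KO, and next in the heart, at 111 and 79.0 CPM in WT and 171 and 52.6 CPM in KO. The libraries of these organs overlapped, and the 1.89-fold difference was under the threshold on the fold change (log2 difference 0.92, SE 0.359, adjusted p = 0.0474). The spleen was 2.90-fold below the heart (adjusted p = 0.0025), at 32.1 to 40.4 CPM. Spleen and kidney (17.4 to 31.0 CPM) were not separated (1.44-fold, adjusted p = 0.232). The small intestine was lowest at 5.15 to 10.7 CPM, 3.33-fold below the kidney (adjusted p = 0.00142). Keratins and other markers of stratified epithelium, the tissue for which Fabp5 is named, summed to 1.9 to 10.8 CPM over all libraries.

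Fabp7, the brain form, was low in all 5 organs and highest in the kidney and the liver. It stood at 12.5 and 23.2 CPM in WT kidney and 14.6 and 15.2 CPM in KO kidney, and at 9.97 to 12.5 CPM in the liver. These organs were not separated (1.43-fold, adjusted p = 0.54). The spleen was 5.36-fold below the liver (log2 difference of liver minus spleen 2.42, SE 0.601, adjusted p = 0.00325). The small intestine (0.61 to 1.48 CPM) was not separated from the spleen (1.48 to 2.71 CPM, adjusted p = 0.201) or from the heart (0.0474 to 1.65 CPM, adjusted p = 0.372). In the heart this was 2 to 24 counts per library.

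The genes with the profile most like each member, by Pearson r of log2 CPM over the 20 libraries among 23158 other genes, differed in how readable they were. For Fabp1 they were Cyp3a11 (r = 0.978), Apoc3 (r = 0.977), and Rdh7 (r = 0.977), of which Cyp3a11 is a drug-metabolizing cytochrome and Apoc3 an apolipoprotein. For Fabp3 they were Higd1b (r = 0.975), Asb15 (r = 0.974), and Myom2 (r = 0.969), the last a protein of the sarcomere M-band. For Fabp2 they were H2-Q1 (r = 0.979), Tex12 (r = 0.977), and Gm2061 (r = 0.974). Those of Fabp4 were Gm5860 (r = 0.980), Ccng1 (r = 0.974), and Ivns1abp (r = 0.970). Those of Fabp5 were Olfr1033 (r = 0.948), Cnbp (r = 0.938), and Riok2 (r = 0.934), and those of Fabp7 C130013H08Rik (r = 0.932), Cyp2j5 (r = 0.930), and Hgd (r = 0.929). With 5 organs behind 20 libraries, such r values are descriptions.

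Along the gut, Fabp1 separated the replicate numbers of the small intestine more than any other member. WT replicate 1 had 372 counts of Fabp1 and WT replicate 2 had 141730, which was 10.8 and 5622 CPM. KO replicate 1 had 3808 counts and KO replicate 2 had 172252, which was 138 and 7103 CPM. Replicate 2 was 520-fold above replicate 1 in WT and 51.5-fold above it in KO. Fabp2 hardly took part, with replicate 2 at 2.02 times replicate 1 in WT and 1.27 times in KO. Fabp4 went the other way, from 54.7 to 12.97 CPM in WT and from 62.5 to 25.5 CPM in KO, which was 4.22-fold and 2.45-fold lower in replicate 2. Most adipocyte markers were split in the same direction as Fabp4, with 6 of 8 higher in replicate 1 of both genotypes. Adipoq was at 12.7 and 8.92 CPM in replicate 1 of WT and KO, against 0.0793 CPM and 0 counts in replicate 2, and Cfd at 26.1 and 17.5 CPM against 0.397 and 0.0825 CPM. Cidec and Cidea were lower in replicate 1, and through Cidec the summed level of the list was 73.8 and 62.4 CPM in replicate 1 and 168 and 165 CPM in replicate 2. The part of fat tissue in the Fabp4 difference was not tested. Fabp5 differed by 1.13-fold and 1.11-fold, and Fabp7 by 2.21-fold and 1.46-fold. Fabp3 was 3.58-fold higher in replicate 2 in WT and 29.1-fold lower in KO, where replicate 1 is the library with cardiomyocyte markers.

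The markers of gut position showed the same split between numbers. Fabp6 was at 6808 CPM in WT replicate 1 and 6258 CPM in KO replicate 1, against 0.238 and 0.412 CPM in replicate 2. Slc10a2, the bile acid transporter of the ileum, was at 2562 and 4035 CPM against 4.601 and 8.25 CPM. Lactase (Lct), a brush border enzyme of the jejunum, was at 0.0291 and 0.145 CPM in replicate 1 and 683 and 1888 CPM in replicate 2. Pdx1, a transcription factor of the duodenum, had 0 counts in both replicate 1 libraries and 93.3 and 65.1 CPM in replicate 2. Enterocyte markers summed to 11476 and 16880 CPM in replicate 1 and 18847 and 16922 CPM in replicate 2. With 1 library per genotype and number and no segment in the labels, no test was made, and gut position and mouse cannot be told apart. Among all genes tested in the small intestine, 5.84% were over 2-fold higher and 5.03% over 2-fold lower in replicate 2 in both genotypes, against 1 and 1 of the 6 members.

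**Figure D3:**
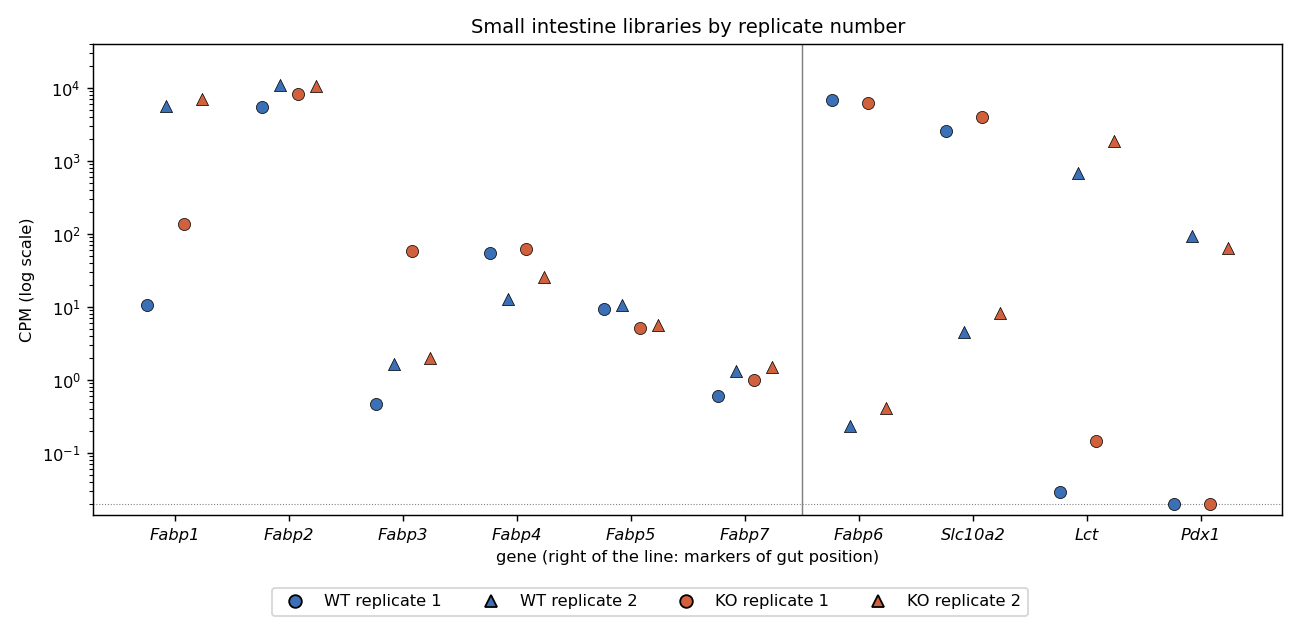
CPM (log axis) in the 4 small intestine libraries of the 6 genes and, right of the line, of 2 distal markers (Fabp6, Slc10a2) and 2 proximal markers (Lct, Pdx1), with WT in blue, KO in orange, circles for replicate 1, and triangles for replicate 2. Libraries with 0 counts lie on the dotted line. Fabp1 is higher in the libraries with the proximal markers and Fabp4 in those with the distal markers, in both genotypes. Of 8 adipocyte markers, which are not drawn, 6 are higher in the libraries with more Fabp4 and 2 (Cidec and Cidea) are lower. The summed level of these markers is lower in the libraries with more Fabp4.

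The size of the Fabp1 difference between liver and small intestine, and its call, depended on which intestinal libraries were used. The estimate was higher for the liver with either pair, but no order was shown with the replicate 2 pair. Scaled to library size only, that pair was at 4992 and 6521 CPM, within the liver range of 4712 to 7557 CPM. With the 2 replicate 1 libraries alone, the liver was higher by 7.87 on the log2 scale (adjusted p = 0.00272), and with the 2 replicate 2 libraries alone the difference was 0.55 (adjusted p = 0.778). Fabp1 in the small intestine was called above the spleen (log2 difference 7.48), but with the replicate 1 libraries alone the difference was 1.07 (adjusted p = 0.449). Fabp2 stayed called above the liver with either pair, by 5.02 and 5.66 on the log2 scale. Fabp4 in the small intestine was above the spleen by 1.24 with the replicate 1 libraries (adjusted p = 0.00325) and at -0.41 with the replicate 2 libraries (adjusted p = 0.312). These subsets were chosen after the levels had been seen.

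Other genes of fatty acid handling had organ patterns of their own. Of the lipid-binding relatives, Rbp2, the retinol carrier of enterocytes, was found in the small intestine at a mean of 3175 ± 3367 CPM, and its libraries split by number like those of Fabp1. The summed level of the relatives, mostly Rbp2, was 143 and 438 CPM in replicate 1 and 5711 and 6473 CPM in replicate 2. Rbp7 was highest in the heart (35.2 CPM). Of the uptake and activation genes, the fatty acid translocase Cd36 had its highest mean in the heart (3832 CPM), the acyl-CoA synthetase Slc27a2 in the kidney (2399 CPM), and the acyl-CoA-binding protein Dbi in the liver (1448 CPM). Lpl, which frees fatty acids from lipoproteins at the capillary wall, was at 7163 CPM in the heart, 768 CPM in the kidney, and 24.5 to 53.6 CPM on average elsewhere, so its 2 leading organs were those of Fabp3 and Fabp4. Plin3 was highest in the small intestine (343 CPM) and the lipase Pnpla2 in the heart (143 CPM).

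Among lipoprotein assembly genes, Apob was at 9219 CPM in the liver and 4791 CPM in the small intestine, the organs of Fabp1. Mttp, which loads lipid onto Apob, was at 2247 CPM in the small intestine and 347 CPM in the liver, and Sar1b was highest in the liver (455 CPM). The nuclear receptor Hnf4a, a known activator of liver and gut genes, was at 655 CPM in the liver, 580 CPM in the small intestine, and 448 CPM in the kidney, against 1.83 CPM in the spleen and 0.124 CPM in the heart. Rxra was highest in the liver (257 CPM) and the coactivator Ppargc1a in the heart (204 CPM). Of the PPAR targets, the fatty acid oxidation enzymes Acadm and Acadl were highest in the heart (1932 and 991 CPM) and Cyp4a14 in the liver (1300 CPM).

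Between KO and WT, 1 member was called in 1 organ. Fabp4 was upregulated in the KO spleen, a call that was lost with the replicate number as a block (adjusted p = 0.106) and in one fit of all 20 libraries (adjusted p = 1), and no other member was called in any organ by the same edgeR test and thresholds. Members that passed the filter on low counts were 6 in the small intestine, liver, and spleen, 5 in the kidney, where Fabp2 was too low, and 4 in the heart, where Fabp1 and Fabp2 were. Of all genes tested, 0.223% were called in the spleen, 0.0509% in the liver, and 0% in the heart, the kidney, and the small intestine. Except for Fabp4 in the spleen, no member had an unadjusted p under 0.05. DESeq2 called Fabp3 in the small intestine besides Fabp4 in the spleen, where it called 0.334% and 1.35% of all genes with an adjusted p.

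Fabp4 in the spleen stood at 15.7 and 15.6 CPM in WT and at 39.4 and 34.4 CPM in KO, from 822, 599, 1734, and 1462 counts. Both KO libraries were above both WT libraries. Genotypes did not overlap, in either direction, for 31.5% of the genes tested in the spleen. The log2 fold change was 1.27 (SE 0.166, unadjusted p = 0.000106, adjusted p = 0.0839). With 42 genes of 18834 called, Fabp4 was near the threshold: leaving out KO replicate 1 raised its adjusted p to 0.125, and leaving out KO replicate 2 to 0.153, while the log2 fold change kept between 1.17 and 1.35 with any 1 library left out.

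Adipocyte markers, as a summed level, were also higher in both KO spleen libraries than in both WT libraries. Their summed level over 8 genes was 22.7 and 7.31 CPM in WT spleen and 49.2 and 41.8 CPM in KO spleen, with Cfd, an adipocyte protease, as the most abundant at 11.9 and 3.34 CPM in WT and 25.9 and 22.7 CPM in KO. Adiponectin (Adipoq) was at 4.48 and 0.679 CPM in WT and 9.34 and 9.46 CPM in KO. The WT libraries thus differed in these markers but hardly in Fabp4, at 15.7 and 15.6 CPM. Of these 8 genes, 7 were tested and 0 were called, 3 had an unadjusted p under 0.05 (Lep, Cidec, and Retn), DESeq2 called 1 (Cidec), all 7 were higher in KO, and their median log2 fold change was 1.58, against 0.0072 over all genes. One of the 8 had 0 counts in WT replicate 1 and one in KO replicate 2. Endothelium markers went the other way, at 326 and 299 CPM in WT and 280 and 193 CPM in KO, with 10 of 10 lower in KO and none called. Macrophage markers overlapped, at 338 and 372 CPM in WT and 429 and 337 CPM in KO. In the heart, Fabp4 was higher in replicate 1 of both genotypes, whereas Adipoq and Cfd were higher in replicate 2. In kidney KO replicate 2 Adipoq was at 0.0713 CPM, the lowest of the kidney libraries, with Fabp4 at 166 CPM, within their range. The part of fat tissue or of any other cell type in the spleen difference of Fabp4 was not tested.

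**Figure D4:**
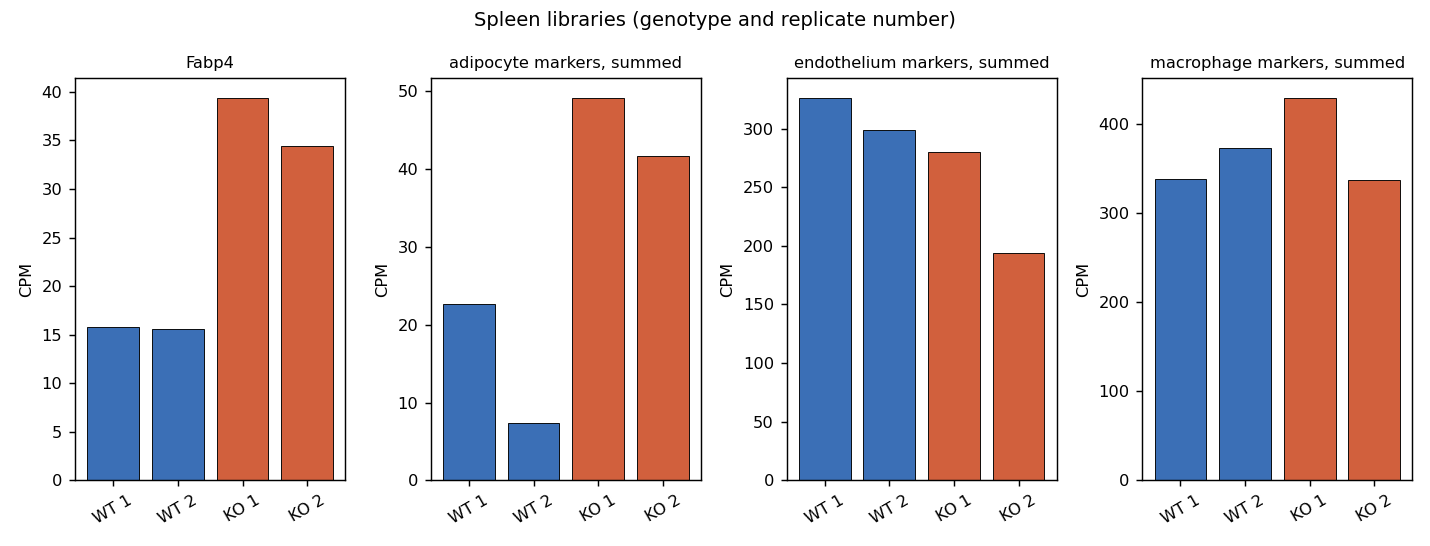
CPM in the 4 spleen libraries of Fabp4 and summed CPM of the adipocyte, endothelium, and macrophage marker lists, each on its own linear axis from 0, with 1 bar per library, WT in blue and KO in orange. Fabp4 and the adipocyte markers are higher in both KO libraries, endothelium markers are lower, and macrophage markers overlap.

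The other differences between genotypes were not called, although several were more than 2 standard errors from 0. In the liver Fabp1 was at 7269 ± 1623 CPM in WT and 11721 ± 208 CPM in KO (SD, n = 2), a log2 fold change of 0.69 (SE 0.323, adjusted p = 0.999), with both KO libraries above both WT. Liver WT replicate 1, the lowest for Fabp1, was also low in hepatocyte markers, at a summed 179779 CPM against 304704 to 350311 CPM in the other 3 libraries, and without it the log2 fold change of Fabp1 was 0.46 (adjusted p = 0.346). The part of these markers in the Fabp1 difference was not tested. Fabp4 was lower in both KO liver libraries (22.005 ± 0.443 against 17.5 ± 3.05 CPM, log2 fold change -0.33, SE 0.225). In the liver 33.3% of all genes tested had genotypes that did not overlap. Fabp5 in the small intestine was at 9.53 and 10.7 CPM in WT and 5.15 and 5.69 CPM in KO, with a log2 fold change of -0.94 (SE 0.396, adjusted p = 0.9999), and this member differed least between the replicate numbers. Fabp3 in the small intestine had a log2 fold change of 4.78 (SE 1.79, adjusted p = 0.9999) through the KO replicate 1 library. In the small intestine 25.1% of all genes did not overlap. Fabp1 was lower in both KO kidney libraries, at 11.2 ± 7.21 CPM in WT and 5.61 ± 0.125 CPM in KO (log2 fold change -1.01, SE 0.568), where 21% of genes did not overlap. Without kidney WT replicate 1 this value was called, with a log2 fold change of -1.54. That fit rests on WT replicate 2, at 16.3 CPM against 6.10 CPM in WT replicate 1. Between the replicate 1 libraries of the kidney, the log2 ratio of KO over WT was -0.098. Fabp5 in the liver was called without WT replicate 2, with a log2 fold change of 1.60. It ranged from 0.11 to 1.60 with any 1 liver library left out. The WT library kept in that call, replicate 1, is the one low in hepatocyte markers. In fits with a lone WT library, that library is assumed to vary like the KO libraries. These settings called 16.1% of all genes in the kidney and 1.16% in the liver. In the heart no tested member had separate genotypes, against 17.2% of genes.

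In the organ where each is most abundant, members other than Fabp1 differed between genotypes by less than 2 standard errors. Fabp2 in the small intestine had a log2 fold change of 0.18 (SE 0.753), Fabp3 in the heart 0.08 (SE 0.603), Fabp4 in the heart 0.26 (SE 0.386), Fabp5 in the liver 0.68 (SE 0.537), and Fabp7 in the kidney -0.28 (SE 0.428). These errors leave room for changes of the size of the fold threshold, so a lack of change is not shown. In the spleen the log2 fold change of Fabp1 was -3.25 (SE 2.58). It was -4.24 (adjusted p = 8.46e-06) without WT replicate 1 and 2.19 (adjusted p = 0.043) without WT replicate 2, the library with hepatocyte markers, so its sign was set by 1 library. These settings called 1.86% and 1.35% of all genes.

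**Figure D5:**
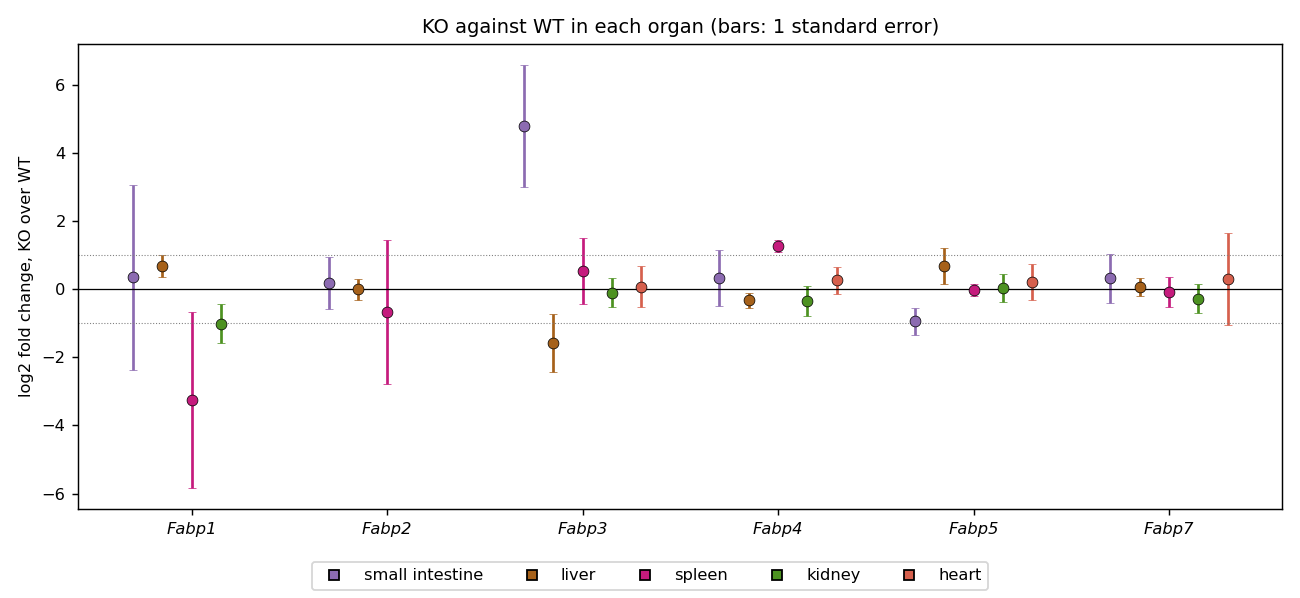
Log2 fold change of KO over WT for each gene in each organ with bars of 1 standard error, from edgeR fits within each organ, and dotted lines at a 2-fold change. Missing points are members below the filter on low counts; Fabp4 in the spleen is the point past the line with a short bar.

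The genes of fatty acid handling around the family were tested in the same fits. Of 65 genes in the 6 pathway lists, 51 were tested in the heart, 58 in the kidney, 53 in the liver, 54 in the spleen, and 55 in the small intestine, and edgeR called 0 in each. An unadjusted p under 0.05 was found, in the same order, for 2, 1, 5, 4, and 0 of them, and DESeq2 called 1, Lpl in the liver (0.349% of all genes there), which had a log2 fold change of -1.12 (SE 0.189, adjusted p = 0.306) in edgeR. In KO small intestine 45 had a higher level than in WT and 10 a lower one, where 50.4% of all genes tested were higher. In KO spleen 16 were higher and 38 lower, where 51.3% of all genes were higher. Markers of other cells lay to both sides in these libraries. Of those tested in the KO small intestine, 10 of 10 endothelium and 6 of 6 cardiomyocyte markers were higher, whereas 6 of 6 hepatocyte, 6 of 6 B and T cell, and 5 of 6 proximal markers were lower. In the KO spleen, 10 of 10 endothelium and 7 of 7 hepatocyte markers were lower, whereas 7 of 7 adipocyte and 6 of 8 macrophage markers were higher. By edgeR none of these markers was called, and an unadjusted p under 0.05 was found for 3 cardiomyocyte markers in the small intestine and 3 adipocyte markers in the spleen. Of all marker lists, DESeq2 called Actc1, Myh6, and Myl2 of cardiomyocytes in the small intestine and also in the liver. In the spleen it called Cidec of adipocytes, Gfap of glia, and Lrp2 of kidney tubule. The part of these cells in the counts was not tested. The median log2 fold change in the spleen was -0.26 for the PPAR targets, -0.15 for uptake and activation, -0.15 for triglyceride synthesis and lipoprotein assembly, -0.11 for the nuclear receptors, -0.10 for the 1 lipid-binding relative tested, and -0.022 for lipolysis and lipid droplets, against 0.0072 over all genes. In the small intestine the medians of these lists, in the same order, were 0.047, 0.30, 0.25, 0.066, 0.25, and 0.47, against 0.0037 over all genes. In the heart 33 of the 51 genes were higher in KO, where 48.2% of all genes were higher, in the liver 29 of 53, against 50.6%, and in the kidney 27 of 58, against 47%.

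Across organs, the mean genotype effect was tested in a fit of all 20 libraries, and no member was called, nor any of the 23159 genes. The smallest unadjusted p among the members was 0.139, for Fabp2 with a mean log2 fold change of -1.51 (SE 0.954). In the fits within organs, Fabp2 was at 0.18 in the small intestine, -0.0078 in the liver, and -0.67 (SE 2.12) in the spleen. The mean also includes the kidney, with at most 3 counts, and the heart, where 3 libraries held 0 counts. Its size is therefore not a measured fold change. A difference of the genotype effect between organs was also tested, and again no gene was called. The smallest unadjusted p was 0.0523, for Fabp3, and that of Fabp4 was 0.324, so the spleen value of Fabp4 was not shown to differ from the other organs.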

How the data were processed

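The authors trimmed the read pairs with cutadapt, mapped them with HISAT2 2.1.0 to mm10, and assigned them to Ensembl (GRCm38) exons with featureCounts 2.0.1. The deposited values are raw gene counts. The methods state reverse-stranded counting of proper pairs, whereas the stored command holds none of these options. Of counts from 10 to 50, 54.9% to 59.8% per library were even, so mates may have been counted separately, and counting error is not given. Groups came from the organ, genotype, and replicate number of the titles. Tests were run in edgeR 4.0.16 (R 4.3.3) with TMM scaling, the filterByExpr filter, and robust quasi-likelihood tests, for genotype within each organ and for organs in one fit of all 20 libraries. Alternatives used DESeq2 1.42.0 and limma 3.58.1 (on log2 of TPM plus 0.1). Libraries held a median of 28513950 counts, and each group had 2 libraries. Scripts were tested on simulated counts.

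The genes named are the 6 members, Nsun6, the 3 most alike genes per member, the 3 genes of highest mean TPM per pathway list and any called, and the most abundant gene per marker list, of which 2 are not reported here. Adipoq, Lct, Pdx1, Slc10a2, Lep, Cidea, Cidec, Retn, Actc1, Myh6, Myl2, Gfap, and Lrp2 were added after their values were seen. The members and the lists were chosen with earlier results of these data known. Proteins were not analysed here.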

Additional observations from a re-analysis of the deposited data

Results flagged for a closer look

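By chance, Dixon's ratio flags about 1 in 20 groups when values are normally distributed and come from 1 condition. Here it was applied to CPM without a log, with WT and KO together, so that rate need not hold. In 30 groups of 4 libraries, 1 for each of the 6 genes in each of 5 organs, 5 held a library far from the other 3. They were Fabp1 in spleen WT replicate 2 (109 CPM) and in kidney WT replicate 2 (16.3 CPM), Fabp2 in heart WT replicate 2 (0.385 CPM, with 0 counts in the other 3, so that its ratio is 1 whatever the value and it does not count against chance), Fabp3 in small intestine KO replicate 1 (58.9 CPM), and Fabp3 in liver WT replicate 1 (2.69 CPM). Spleen WT replicate 2 held hepatocyte markers and small intestine KO replicate 1 cardiomyocyte markers at nearly the same percent of their source organ as the member itself. In kidney WT replicate 2 Fabp1 was at 0.172% of its liver level and the hepatocyte markers at a median of 0.0404%, from 0.0203% to 0.827%.

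For a pair of members, the genotypes did not overlap in 2 organs but moved in opposite directions, in libraries where 33.3% of all genes tested did not overlap in the liver, 31.5% in the spleen, and 21% in the kidney. The log2 fold change of Fabp1 was 0.69 in the liver and -1.01 in the kidney, and that of Fabp4 was 1.27 in the spleen and -0.33 in the liver. Neither of these differences between 2 organs was tested on its own.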

How the results depend on the processing

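Fabp4 in the spleen stayed called with DESeq2, library size only, RLE size factors, no filter, at least 10 counts in every library, and no fold change threshold (log2 fold change 1.19 to 1.27, adjusted p from 3.2e-07 to 0.0993), whereas the count of members called in the spleen was 0 with the replicate block (adjusted p of Fabp4 0.106) and 0 in one fit of all 20 libraries (adjusted p = 1). Same-numbered libraries deviated together with a correlation over genes of 0.468 in the heart, 0.267 in the kidney, 0.067 in the liver, -0.00949 in the spleen, and 0.639 in the small intestine, but the labels pair no libraries and each organ has only 2 pairs. In the small intestine same-numbered libraries also shared markers of gut position. In the heart, the column names of both replicate 2 libraries hold the added word pre, which is not explained. These libraries had 36090637 (WT) and 41763236 (KO) total counts, against 17959542 and 15897446 in replicate 1. With 1 library left out, the members called ranged from 0 to 2 in the spleen, from 0 to 1 in the liver, and from 0 to 1 in the kidney, while all genes called ranged from 0 to 371, from 2 to 205, and from 1 to 2938. DESeq2 called 1 member in the small intestine (Fabp3), among 51 genes. With no filter on low counts, 1 member (Fabp2) was called for the mean genotype effect and 3 (Fabp1, Fabp2, and Fabp3) for its difference between organs, among 0.623% and 2.66% of all genes. The mean of Fabp2 includes kidney and heart libraries with 0 counts.

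All alternatives kept the organ pairs called per gene within 1.5 times the count reported. The pair of kidney and heart for Fabp1 lost its call without kidney WT replicate 2 or heart WT replicate 1, KO replicate 1, or KO replicate 2, and in WT only (adjusted p = 0.243), that of small intestine and spleen in WT only (adjusted p = 0.137) and with intestinal replicate 1 alone (adjusted p = 0.449), and spleen against heart for Fabp2 without spleen KO replicate 1. Library size only and log2 TPM gave calls to Fabp4 in spleen over liver (1.48 and 1.51), Fabp7 in kidney over liver (1.27 and 1.32), and Fabp7 in spleen over small intestine (1.59 and 1.498), and Fabp7 in small intestine over heart gained one without heart KO replicate 1 (2.70). Fabp1 in spleen over kidney gained one with no filter on low counts (1.15). Fabp3 in small intestine over liver lost its call without small intestine WT replicate 2, without liver WT replicate 2, and with intestinal replicate 2 alone. Fabp5 in liver against heart gained one in 7 settings that leave out a library, and heart against spleen for Fabp5 lost it with library size only, on log2 TPM, and without heart KO replicate 1.

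With the length of the principal transcript, the leading member's share was 97.3% in the liver, 84.2% in the heart, 45.8% in the kidney, and 38.3% in the spleen, where Fabp5 then led.

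Most signs that turned belonged to differences that were not called. For organs these were Fabp3 in liver over spleen (-0.75 with library size only, -0.66 on log2 TPM), Fabp2 in heart over kidney (0.48 with DESeq2, 2.08 in WT only, 0.11 on log2 TPM, 1.31 with the replicate block), Fabp4 in small intestine over spleen (-0.14 on log2 TPM, -0.41 with intestinal replicate 2 alone), Fabp4 in spleen over liver (-0.52 in WT only), and Fabp1 in spleen over kidney (-1.56 without both libraries that hold another organ's markers). Of called differences, Fabp3 in small intestine over liver turned to -0.59 in WT only (adjusted p = 0.677), and Fabp1 in the spleen between genotypes, not called with all libraries, turned with a call when WT replicate 2 was left out (adjusted p = 0.043). Fabp3 in the heart between genotypes was -0.041 with the replicate block. The log2 ratio of Fabp5 between intestinal replicates turned to -0.10 in WT with library size only and to -0.18 in WT and -0.16 in KO on TPM. With 1 library left out, log2 fold changes between genotypes ranged from -4.45 to 8.37 for Fabp1 and from -0.24 to 0.76 for Fabp2 in the small intestine, from -2.33 to 0.28 for Fabp3 in the liver, from -4.24 to 2.19 for Fabp1 in the spleen, from -0.64 to 0.23 for Fabp7 in the kidney, and from -0.83 to 0.64 for Fabp3 and from -0.12 to 0.58 for Fabp4 in the heart. Between organs they ranged from -0.014 to 0.99 for Fabp4 in small intestine over spleen, from -0.64 to 1.66 for Fabp3 in liver over spleen, from -1.55 to 1.70 for Fabp1 in spleen over kidney, and from -3.00 to 1.70 for Fabp2 in heart over kidney. The causes were not tested.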
